A study of Drosophila melanogaster with 15 samples.

Results

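The small nucleolar RNA (snoRNA) genes described here are those not named as pseudouridylation guides. Many are named as methylation guides or as orphans, meaning that no target RNA is known for them, and for others the name does not give the kind. They were chosen by name alone, as probesets whose annotated gene symbol begins with snoRNA: but not with snoRNA:Psi, the prefix of the pseudouridylation guides. On the array 121 probesets met this rule, and 2 of them, both annotated to the U3 genes 54Aa and 54Ab, held identical values and were counted once. This left 120 members among 16322 probesets. A further 14 probesets carried such a symbol beside the symbol of another gene and were left out, and 100 probesets with distinct values belonged to pseudouridylation guides.

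RNA from whole heads of Drosophila melanogaster was hybridized to 15 Affymetrix Drosophila Gene 1.0 ST arrays, 5 for each of 3 genotypes. The elav/+ flies carried the neuron-selective elav-Gal4 driver alone, and the v105975/+ flies had no driver but a UAS transgene, v105975, for a hairpin RNA that targets Clic, a chloride intracellular channel gene. The elav/v105975 flies carried both, so that the hairpin was driven in neurons. All results on v105975 rest on this single hairpin line, no age or sex of the flies is given in the sources used here, and whole heads also hold glia, fat body, muscle and other cells in which elav-Gal4 is not expected to drive the hairpin. The values are log2 intensities, so a difference of 1 stands for a change by a factor of 2, and differences were tested with limma on all 15 arrays, with adjustment over all probesets. A gene was called when its adjusted p was at most 0.05. It is not stated whether replicate arrays of a genotype are from separate crosses. Each p therefore sets a difference only against the spread between these arrays, which may leave out variation between crosses.

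snoRNAs are short stable RNAs of the nucleolus. Those with C and D boxes pair with ribosomal or spliceosomal RNA and direct fibrillarin to add a methyl group to the ribose of 1 nucleotide, which the gene name often gives (Me28S for a site in 28S ribosomal RNA, Me18S for 18S, MeU6 for the U6 spliceosomal RNA). Those with H and ACA boxes direct the conversion of uridine to pseudouridine. A few, U3 and U14 among them, are needed for cleavage of the ribosomal RNA precursor. Most fly snoRNAs are cut from the introns of a host gene, and many of these hosts are ribosomal protein genes or Uhg genes, whose spliced RNA is not known to encode a protein.

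By name, 44 members were guides for 28S, 17 for 18S and 2 for U6. Another 15 had U numbers (U3, U14, U27, U29, U31 and others), 7 were orphans of the C/D kind, 4 were orphans of the H/ACA kind, 20 were named after the gene they lie in (such as lola-d), and 11 had other names. In RefSeq (Release 6 of the fly genome) 117 members were matched by symbol, and 3 (Me28S-C437, Me28S-G2743 and Me28S-A3365) were not. The matched genes lay on chromosome arms 2L (13), 2R (55), 3L (28) and 3R (12), on chromosome 4 (1) and on X (8). Of the 117 matched, 111 lay inside another gene, without regard to strand. These included 42 inside Uhg genes and 28 inside ribosomal protein genes. The 3 unmatched members could not be placed. The 28S guides had a median length of 79 bases and the host-named genes 154.5 bases, close to the 147.5 bases of the H/ACA orphans. The array files state no genome build, so no coordinates are given.

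Some probesets cannot be told apart from others. The probeset for Me28S-C2645b and Me28S-C2645c held the same value on every array as a probeset annotated to Uhg3, the gene around them. Another 24 members, 23 of them inside ribosomal protein genes, shared every value with a probeset that has no symbol. Several guides also have near-identical copies (U29, U31 and Me28S-A2634, for instance), whose signals may mix.

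As a check of the labels, the Clic probeset read 9.09 to 9.23 on the elav/+ arrays, 8.85 to 9.05 on v105975/+ and 8.28 to 8.50 on elav/v105975. Array medians lay between 6.16 and 6.24, and each array correlated with the others of its genotype at a mean of 0.993 to 0.995. The 5 neuronal markers had mean levels of 9.04 to 11.16 and none was called between genotypes. The 4 testis markers (2.35 to 4.10) and the 4 ovary markers (3.82 to 4.47) lay below the median of all probesets. Marker genes of other head cells did move in elav/v105975 against elav/+. Called were 2 of 4 photoreceptor markers (higher), 1 of 5 glial markers (higher), 1 of 4 muscle markers (higher) and 2 of 5 fat body markers (lower), while 0 of 4 hemocyte markers were. The called glial marker was wrapper (0.43), and repo, Eaat1, Gs2 and moody went the other way uncalled, by -0.005 to -0.16. In muscle, Mhc was called (0.37), Mlc2 (0.15) and up (0.26) were higher uncalled, and Act88F went the other way (-0.21). In fat body, Yp1 (-0.28) and apolpp (-0.34) were called, Yp2 (-0.46) and Fbp1 (-0.11) were lower uncalled, and Lsp2 differed by 0.04. In v105975/+, trp and wrapper were also called higher, and no muscle or fat body marker was called. The summed level of the fat body markers was 14.35 to 14.55 in elav/+, 13.95 to 14.18 in v105975/+ and 13.82 to 14.42 in elav/v105975, and that of the muscle markers was 12.71 to 13.12, 12.75 to 13.15 and 12.98 to 13.22. The fat body sum rests mainly on Yp1, Yp2 and apolpp, the brightest of its genes. The part of cell composition in the snoRNA results was not tested. In whole heads, fewer cells of a type and less RNA per cell cannot be told apart.

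As a set, the snoRNA genes gave signal above the median probeset in fly heads. The median of their mean levels was 6.97, against 6.19 for all probesets, and 80 of 120 lay above that value. The brightest 10% of all probesets held 32 of them and the dimmest 10% held 7. By class, the median was 6.26 for the 18S guides, 6.49 for the 28S guides and 5.63 for other names, with the other classes higher. The pseudouridylation guides had a median of 8.10. Levels depend on each probeset's own probes, so the order between genes is one of signal and not of RNA amount. Whether a probeset inside a host gene also reads unspliced RNA of that host was not tested. The brightest members were the U3 probeset (13.39), the C/D orphan Or-CD2 (13.36) and snoRNA:185 (13.31), whose means differed by less than 0.1. For U3, the 5 values were 13.31, 13.39, 13.46, 13.49 and 13.44 in elav/+, 13.38, 13.34, 13.36, 13.38 and 13.20 in v105975/+, and 13.43, 13.46, 13.45, 13.34 and 13.39 in elav/v105975. These genotypes overlapped, and all lay near the top of the scale. The dimmest members were a gene inside CRAT (1.53), Me28S-G3255b (2.44) and Me28S-C3351 (2.54), and none of them was called in any comparison.

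**Figure D1:**
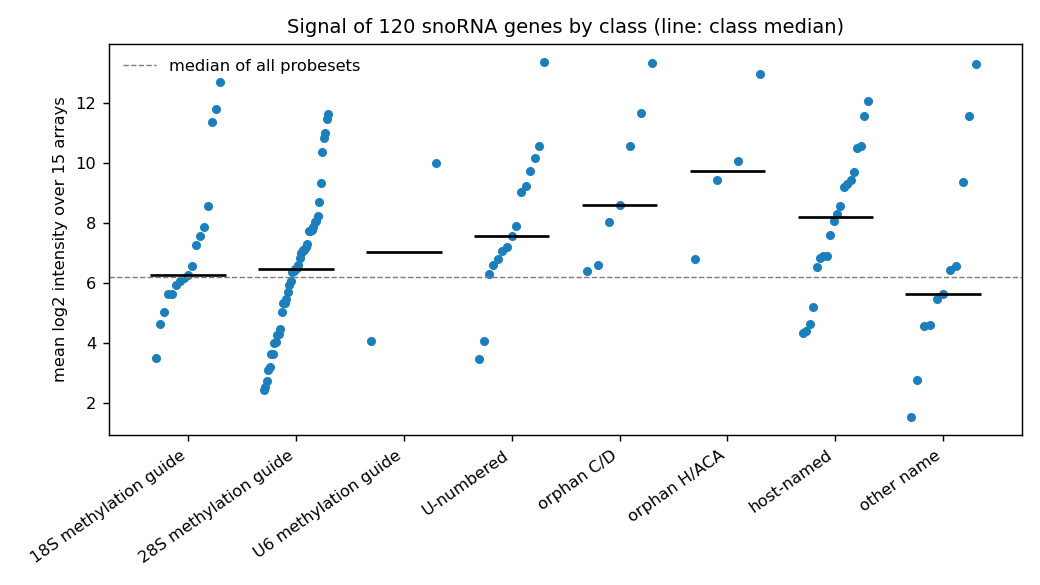
Mean log2 intensity over the 15 arrays (vertical axis) of each of the 120 snoRNA genes, by class of name (horizontal axis). Points are genes, the line is the class median and the dashed line is the median of all probesets (6.19). The class medians run from 5.63 for other names to 9.76 for the H/ACA orphans.

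Against elav/+, limma called 8 snoRNA genes in the flies that expressed the hairpin in neurons. In elav/v105975, 4 members were higher (lola-d, Pi4KIIalpha-a, Dek-a and Or-CD8) and 4 were lower (Me28S-G3113b, U31:54Eb, the Me28S-C2645b and C2645c probeset, and Me18S-A1061). These 8 of 120 made 6.67% of the members, while 9.43% of all probesets were called. The members were measured less precisely, with a median SE of 0.114 against 0.086 for all probesets. Their median absolute difference was 0.113, against 0.098, but lower precision alone widens such differences. At an unadjusted limma p under 0.05 there were 22 (18.3%), against 23.5% of all probesets. With the lower precision, the share of calls cannot show whether fewer of them changed. Higher calls were made for 4.26% of all probesets and lower calls for 5.17%. The median difference of the members was 0.003, with 61 above 0 and 59 below, and that of all probesets was -0.002. The 5 arrays of each genotype did not overlap for 6 members (5%), against 10% of all probesets.

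The v105975/+ flies, with the hairpin transgene but no driver, gave 5 called members (4.17%), against 6.1% of all probesets. Here lola-d and Pi4KIIalpha-a were higher, and U31:54Eb, the Me28S-C2645b and C2645c probeset and Or-CD4 were lower. Higher calls made up 2.62% of all probesets and lower calls 3.47%. The median difference was 0.01, as it was for all probesets. Groups did not overlap for 4 members (3.33%), against 7.19% of all probesets. Both comparisons use the same 5 elav/+ arrays, so a value that is high or low there moves both.

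Between elav/v105975 and v105975/+, which differ in the driver, limma called 0 members, against 0.417% of all probesets (0.214% higher and 0.202% lower). Groups did not overlap for 2 members, Dek-a and Me28S-A2634b (1.67%), against 2.3% of all probesets. At an unadjusted p under 0.05 there were 6 (5%), against 9.07% of all probesets. The 95% confidence interval lay within a 1.5-fold change in either direction for 104 of 120 members in this comparison, for 94 in elav/v105975 against elav/+ and for 98 in v105975/+ against elav/+.

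**Figure D2:**
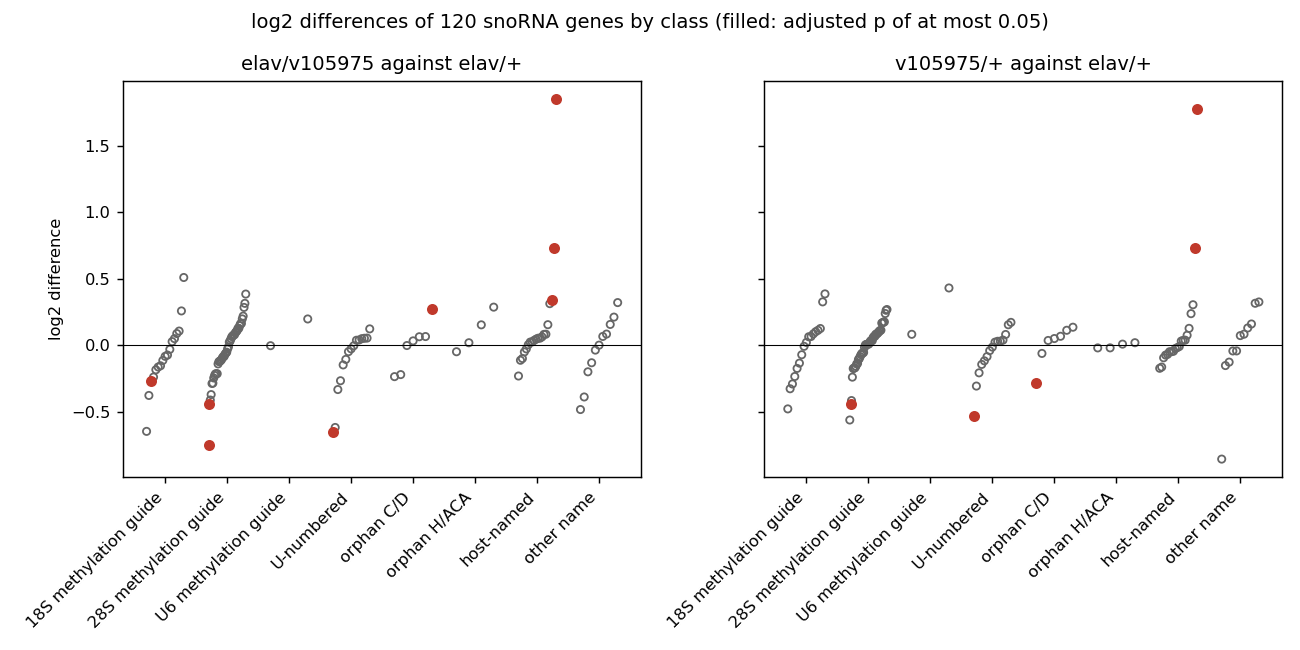
Log2 difference (vertical axis) of each of the 120 snoRNA genes against elav/+, by class of name (horizontal axis), for elav/v105975 (left) and v105975/+ (right). Each circle is a gene and filled circles are the 8 and 5 called genes. Most genes lie near 0 in every class, and lola-d stands highest in both panels, at 1.85 and 1.77.

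The largest change of any member was that of snoRNA:lola-d, which lies inside lola, a gene for a family of transcription factors that act in axon guidance. Its elav/+ values were 5.84, 5.60, 5.61, 5.73 and 5.39. The v105975/+ values were 7.27, 7.26, 7.81, 7.39 and 7.32, and the elav/v105975 values were 7.60, 7.45, 7.45, 7.36 and 7.57. All 10 arrays with the transgene stood above all 5 without it. The gene was 3.61-fold higher in elav/v105975 (log2 difference 1.85, SE 0.10, limma adjusted p = 4.06e-08) and 3.42-fold higher in v105975/+ (1.77, SE 0.10, adjusted p = 8.72e-08). Between the 2 genotypes with the transgene the difference was 0.08, with a 95% interval from -0.14 to 0.30. The other snoRNA genes in lola did not share this rise, since in elav/v105975 against elav/+ lola-a differed by 0.05 (95% interval -0.07 to 0.18), lola-b by 0.00 (-0.11 to 0.12) and lola-c by -0.11 (-0.26 to 0.04). The lola probeset itself, annotated jointly to lola and pre-lola-G, differed by 0.09 (SE 0.05, limma adjusted p = 0.282).

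A similar pattern was seen for snoRNA:Pi4KIIalpha-a, which lies inside the gene of a phosphatidylinositol kinase. It read 8.61, 8.95, 8.81, 8.91 and 8.79 in elav/+, 9.37, 9.47, 9.72, 9.46 and 9.71 in v105975/+, and 9.44, 9.60, 9.64, 9.42 and 9.64 in elav/v105975. Again the elav/+ arrays lay below all others. The rise was 1.66-fold in each comparison with elav/+ (0.73, SE 0.08, limma adjusted p = 6.54e-05 in elav/v105975 and 8.02e-05 in v105975/+). Its host Pi4KIIalpha differed by 0.05 (SE 0.05, adjusted p = 0.605) in elav/v105975.

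snoRNA:Dek-a was called in elav/v105975 and not in v105975/+, although normalizing by quantiles once more gave a call in v105975/+ as well (adjusted p = 0.0432). Dek encodes a chromatin protein. The values of snoRNA:Dek-a were 11.41, 11.54, 11.40, 11.37 and 11.41 in elav/+, 11.49, 11.48, 11.55, 11.57 and 11.68 in v105975/+, and 11.69, 11.79, 11.69, 11.77 and 11.89 in elav/v105975. The elav/v105975 arrays lay above those of both other genotypes, although by little over the highest v105975/+ array. The difference from elav/+ was 0.34 (1.26-fold, SE 0.06, limma adjusted p = 0.00128), and v105975/+ differed from elav/+ by 0.13 (adjusted p = 0.219). The difference between elav/v105975 and v105975/+, which is the test of whether the 2 effects differ, was 0.21 (95% interval 0.09 to 0.33) and did not pass (adjusted p = 0.174). The exact two-sided permutation test of that gene gave p = 0.00794, the smallest that 5 arrays against 5 allow and not adjusted for the number of genes. The host Dek differed by 0.06 (adjusted p = 0.684).

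Or-CD8, a C/D orphan, was the other member called higher. Its values were 8.26, 8.71, 8.55, 8.42 and 8.44 in elav/+, 8.61, 8.63, 8.61, 8.66 and 8.57 in v105975/+, and 8.83, 8.72, 8.63, 8.72 and 8.87 in elav/v105975. The groups overlapped through the highest elav/+ array. The difference in elav/v105975 was 0.28 (1.21-fold, SE 0.07, limma adjusted p = 0.0259). Or-CD8 shares its values with an unnamed probeset, and its call was lost without each of 5 arrays in turn (adjusted p up to 0.0605) and in the fit of the 10 arrays compared (0.0718).

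**Figure D3:**
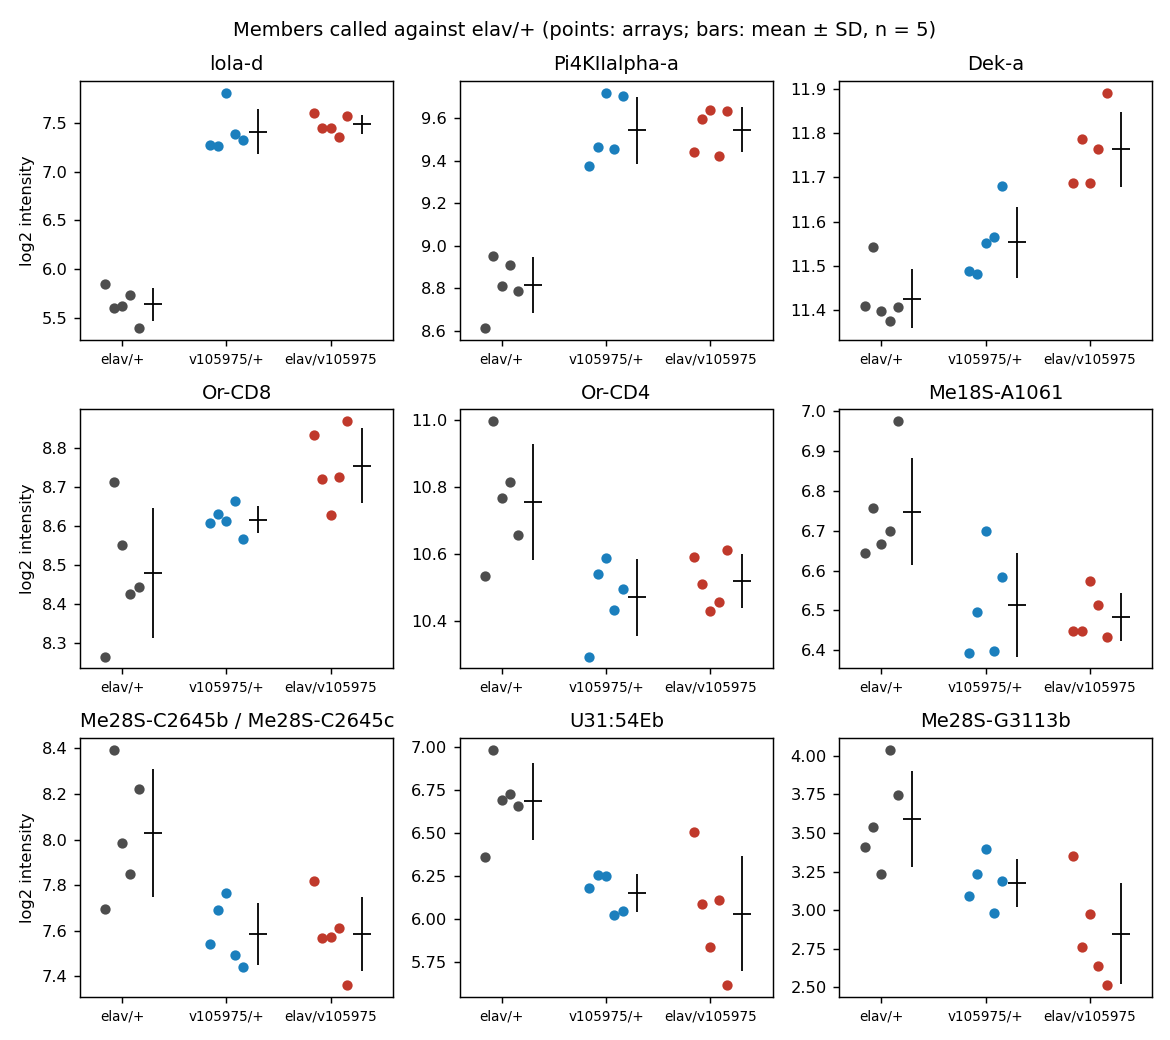
Log2 intensity (vertical axes) on each array (points) of the 9 snoRNA genes called against elav/+ in either genotype, by genotype (horizontal axes). Bars beside the points are mean ± SD of 5 arrays. For lola-d and Pi4KIIalpha-a all arrays with the transgene lie above all elav/+ arrays, and the vertical scale differs between panels.

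Me28S-G3113b was among the members called lower. This guide lies inside Sf3b3, which encodes a splicing factor, and it is dim, among the lowest 10% of all probesets. Its mean level lies in the range of the testis markers (2.35 to 4.10), and whether its signal exceeds background was not tested. It read 3.41, 3.54, 3.24, 4.04 and 3.75 in elav/+, 3.09, 3.24, 3.39, 2.98 and 3.19 in v105975/+, and 3.35, 2.76, 2.98, 2.64 and 2.52 in elav/v105975. One elav/v105975 array (3.35) lay among the elav/+ values. The difference was -0.75 in elav/v105975 (SE 0.16, limma adjusted p = 0.00855) and -0.42 in v105975/+ (adjusted p = 0.163). Its sister Me28S-G3113a differed by -0.41 (95% interval -0.73 to -0.10, adjusted p = 0.1), and Me28S-C788a and C788b in the same host by 0.39 and 0.32, with intervals that hold 0.

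U31:54Eb, inside Uhg1, was lower in both genotypes with the transgene. Its values were 6.36, 6.98, 6.69, 6.73 and 6.66 in elav/+, 6.18, 6.26, 6.25, 6.03 and 6.05 in v105975/+, and 6.51, 6.09, 5.84, 6.11 and 5.62 in elav/v105975. The v105975/+ arrays lay below all elav/+ arrays, and elav/v105975 replicate 1 lay within the elav/+ range. The differences were -0.65 (SE 0.14, limma adjusted p = 0.00837) and -0.53 (adjusted p = 0.0358). The copy U31:54Ec differed by -0.62 in elav/v105975 (adjusted p = 0.0871) and U31:54Ed by -0.11 (adjusted p = 0.786). The call of U31:54Eb in v105975/+ was lost without each of 8 arrays in turn, with an adjusted p of up to 0.0864.

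The Me28S-C2645b and C2645c probeset, which cannot be told apart from the Uhg3 probeset of the same values, read 7.70 to 8.39 in elav/+ (median 7.98), 7.44 to 7.76 in v105975/+ and 7.36 to 7.82 in elav/v105975. The lowest elav/+ array lay inside the ranges of the others. It was lower by -0.44 (SE 0.12) in each comparison (limma adjusted p = 0.0308 and 0.0415). A second Uhg3 probeset, with values of its own, differed by -0.10 (SE 0.08, adjusted p = 0.547) in elav/v105975. Without each of 7 arrays in turn the call in elav/v105975 was lost (adjusted p up to 0.0772), and without each of 10 that in v105975/+ (up to 0.101).

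Me18S-A1061 and Or-CD4 both lie in Uhg5. Me18S-A1061 read 6.64, 6.76, 6.67, 6.70 and 6.98 in elav/+, 6.39, 6.50, 6.70, 6.40 and 6.58 in v105975/+, and 6.45, 6.45, 6.57, 6.51 and 6.43 in elav/v105975. No elav/v105975 array reached the lowest elav/+ value. The difference was -0.27 (SE 0.07, limma adjusted p = 0.0315), and in v105975/+ it was -0.23 (adjusted p = 0.0729). Its call was lost without each of 7 arrays in turn (adjusted p up to 0.0719). Or-CD4 read 10.53, 10.998, 10.77, 10.82 and 10.66 in elav/+, 10.29, 10.54, 10.59, 10.43 and 10.50 in v105975/+, and 10.59, 10.51, 10.43, 10.46 and 10.61 in elav/v105975, and the genotypes overlapped at the lowest elav/+ array. It differed by -0.29 in v105975/+ (SE 0.08, adjusted p = 0.0486) and by -0.24 in elav/v105975 (adjusted p = 0.0826). The former call was lost without each of 13 of 15 arrays (adjusted p up to 0.124).

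Me28S-A2634b had the smallest p between elav/v105975 and v105975/+. It read 6.14, 6.99, 6.48, 6.42 and 6.39 in elav/+, 5.72, 6.26, 6.31, 5.64 and 5.68 in v105975/+, and 6.86, 6.85, 6.63, 6.39 and 6.78 in elav/v105975. Every elav/v105975 value exceeded the highest v105975/+ value. The elav/+ arrays covered the elav/v105975 range and overlapped v105975/+ only at its values of 6.26 and 6.31. The difference was 0.78 (SE 0.17, limma adjusted p = 0.0603), and v105975/+ differed from elav/+ by -0.56 (adjusted p = 0.0606). Without elav/+ replicate 2, elav/v105975 replicate 4, v105975/+ replicate 2 or v105975/+ replicate 3 the first difference was called, with an adjusted p as low as 0.0239.

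By class, in elav/v105975 against elav/+, where 9.43% of all probesets were called, 3 of 20 host-named genes were called (all higher), as were 2 of 44 guides for 28S and 1 of 17 for 18S (all lower), 1 of 15 U-numbered genes (lower) and 1 of 7 C/D orphans (higher). None of the 4 H/ACA orphans, the 2 U6 guides or the 11 genes with other names was called. Among these uncalled classes the smallest p values belonged to Or-aca4 (0.29, 95% interval 0.09 to 0.49, limma adjusted p = 0.0734), Or-aca1 (0.15, 0.04 to 0.27, adjusted p = 0.0922) and a gene of the last class with no host (0.32, 0.10 to 0.54, adjusted p = 0.0627), named only by its position. MeU6-C68 differed by 0.43 in v105975/+ (adjusted p = 0.135). Beside the members, 16 of 100 pseudouridylation guides were called in elav/v105975 (14 higher and 2 lower, median 0.06) and 11 in v105975/+ (9 higher and 2 lower, median 0.01), against 9.43% and 6.1% of all probesets. The difference between these 2 kinds of snoRNA gene was not tested.

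Several genes around the snoRNAs were lower in elav/v105975. Of 47 hosts with a probeset, 46 had one with a single symbol. Of the 47, 13 were called lower and 1 (tn) higher in elav/v105975 than in elav/+, and 3 were called lower in v105975/+. Between elav/v105975 and v105975/+ 0 hosts were called, against 0.417% of all probesets. Of all probesets, 5.17% were lower and 4.26% higher in the first comparison, and 3.47% were lower in the second. There were 96 pairs of a member and a host with a single symbol. In 45 the host was called in elav/v105975, and in 41 of these the member was not. Member and host had the same call in only 3 pairs. Since 6.67% of all members were called in elav/v105975 against elav/+, an uncalled member is the common case. Pairs are also not separate units, as Uhg1 alone holds 16 members and Uhg5 holds 9. Whether a member and its host differ in response was not tested.

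The largest fall of a host was that of Uhg2, which holds both U14 genes. It read 7.07, 7.57, 7.28, 7.15 and 7.56 in elav/+, 6.30, 6.40, 6.50, 6.56 and 6.80 in v105975/+, and 6.63, 6.31, 6.55, 6.36 and 6.33 in elav/v105975. No array with the transgene reached the elav/+ range. Uhg2 was lower by -0.89 (SE 0.11, limma adjusted p = 0.000177) and by -0.82 (adjusted p = 0.000554). None of its 4 snoRNA genes was called. U14:30Ea differed by -0.33 in elav/v105975 (95% interval -0.66 to -0.01) and was called without elav/+ replicate 1 (-0.48, adjusted p = 0.0228). U14:30Eb differed by -0.27 (-0.58 to 0.05) and Me18S-G1620 by -0.07 (-0.39 to 0.25). Me18S-A1576 differed the other way, by 0.51 (0.17 to 0.85, adjusted p = 0.059), with elav/+ replicate 1 far below the rest at 5.12. Without that array the difference was smaller, at 0.32, but was called (adjusted p = 0.0406).

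Uhg1, with 16 members, differed by -0.46 (SE 0.09, limma adjusted p = 0.00375) in elav/v105975. Its members had a median difference of -0.09, with 11 below 0 and 1 called, and the bright guide Me28S-A3407a differed by -0.07 (95% interval -0.30 to 0.16). Uhg5, with 9 members, was lower by -0.35 (SE 0.08, adjusted p = 0.0161), and its members had a median of -0.12 with 1 called. Sf3b3 was lower by -0.29 (SE 0.06, adjusted p = 0.00524), and 1 of its 5 members was called. Uhg4 (-0.28, adjusted p = 0.185) and RpL28 (-0.15, adjusted p = 0.0869) were not called, nor were the 6 and 4 members inside them, and in Uhg4 the bright Or-aca5 differed by 0.02 (95% interval -0.08 to 0.12). The 28 members inside ribosomal protein genes had a median of -0.03 with 1 called, Or-CD8, which was higher (0.28). The 42 inside Uhg genes had a median of -0.09 with 3 called, all lower. In v105975/+ against elav/+, Uhg1, Uhg5 and Sf3b3 differed by -0.30, -0.25 and -0.20 without a call (limma adjusted p = 0.0516, 0.0972 and 0.0563).

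**Figure D4:**
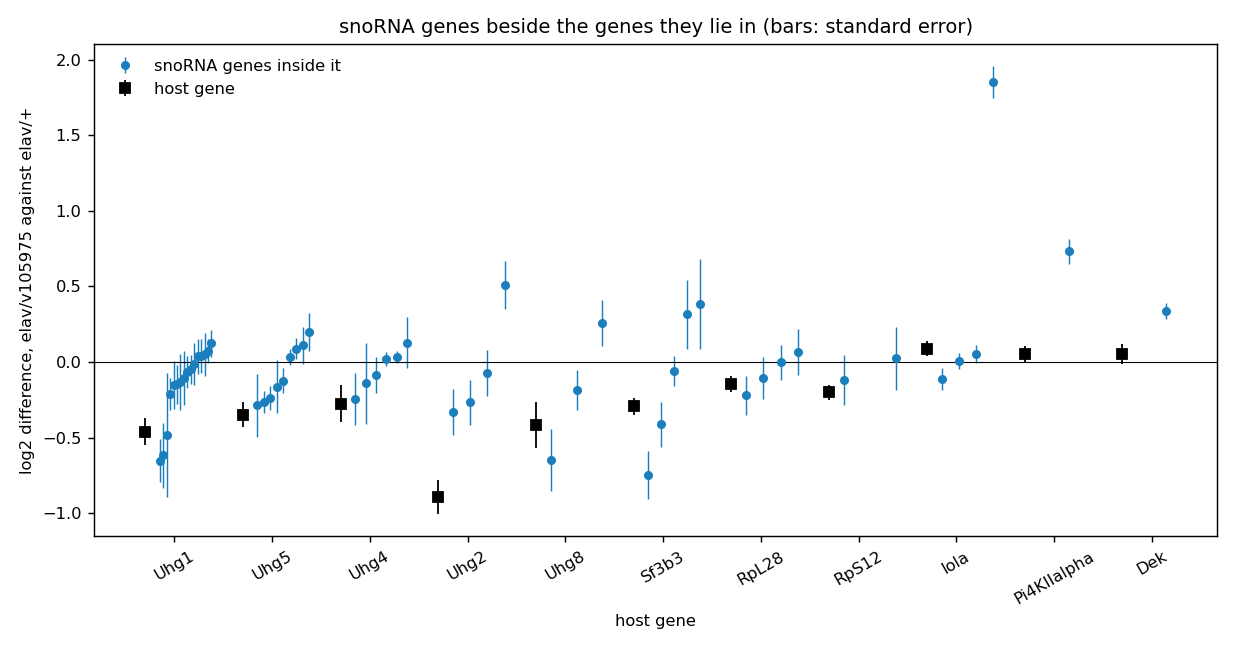
Log2 difference of elav/v105975 against elav/+ (vertical axis) for 11 host genes (squares) and the snoRNA genes inside each (circles), with standard errors as bars. The hosts (horizontal axis) were picked from those with several members or with a member described in the text. Uhg2 lies at -0.89 with its 4 snoRNA genes between -0.33 and 0.51, and lola-d lies at 1.85 with its host at 0.09.

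The genes for the 4 core proteins of C/D snoRNA particles were all lower in elav/v105975 than in elav/+, against 5.17% of all probesets. Fib, which encodes the methyltransferase fibrillarin, differed by -0.41 (limma adjusted p = 0.0277), Nop56 by -0.43 (0.00412), nop5 by -0.47 (0.000861) and hoip by -0.43 (0.00991). In v105975/+ nop5 (-0.33, adjusted p = 0.0148) and hoip (-0.43, 0.0145) were called lower. Fib (-0.32, 0.0999) and Nop56 (-0.26, 0.0877) were lower there without a call. Between elav/v105975 and v105975/+ 0 of the 4 were called. The product of nop5 is a scaffold of the particle, and that of hoip binds the snoRNA itself. The nop5 values were 6.03 to 6.46 in elav/+, 5.85 to 6.09 in v105975/+ and 5.77 to 5.85 in elav/v105975, so that the driven genotype lay wholly below elav/+. Fib and nop5 also hold a member each and are counted among the hosts.

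Among the other genes of snoRNA formation, limma called only genes of H/ACA particles. Of all probesets, 9.43% were called in elav/v105975 against elav/+, 6.1% in v105975/+ against elav/+ and 0.417% between elav/v105975 and v105975/+. Of 5 measured genes for H/ACA particles, Nop60B, which encodes the pseudouridine synthase, was lower in elav/v105975 (-0.60, SE 0.14, limma adjusted p = 0.0159). In v105975/+ Nop60B was lower without a call (-0.42, adjusted p = 0.103). The others also differed downward in elav/v105975 without a call. These were Nop10 (-0.35, adjusted p = 0.0626), NHP2 (-0.28, 0.306), Gar1 (-0.25, 0.188) and CG10341 (-0.25, 0.0703). CG10341 was higher in v105975/+ than in elav/+ (0.30, adjusted p = 0.0432) and lower in elav/v105975 than in v105975/+ (-0.55, adjusted p = 0.00294). Of 5 measured assembly factors and 6 measured trimming and debranching factors (Rrp6, Dis3, Mtr4, Rat1, pcm and ldbr), limma called 0 in any comparison. The lowest of these, Nopp140, differed by -0.35 in elav/v105975 (adjusted p = 0.0588).

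The snoRNA genes varied together between arrays of a genotype. The deviations of 2 members from their genotype means correlated at a median of 0.276 over the 15 arrays, which share their normalization, against 0.287 among pseudouridylation guides and a median near 0 among 1000 other probesets spaced evenly through the table. Within Uhg1 this median was 0.412 and within Uhg2 0.682. The array elav/+ replicate 1 was the lowest of its genotype for 83 of 120 members, with a mean deviation of -0.22. The array v105975/+ replicate 3 was the highest of its genotype for 70, with a mean deviation of 0.16, and elav/+ replicate 2 was the highest for 54.

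These deviations were wider than the differences between genotypes. The mean over all members was 7.32 ± 0.14 in elav/+, 7.33 ± 0.10 in v105975/+ and 7.31 ± 0.07 in elav/v105975 (SD, n = 5). The residual SD of a member was 0.192 at the median, against 0.140 for all probesets, and 101 of 120 (84.2%) exceeded the median of probesets within 0.5 of their level. Without elav/+ replicate 1, the median difference of the members was -0.05 in elav/v105975 and -0.04 in v105975/+, and 11 and 6 members were called.

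**Figure D5:**
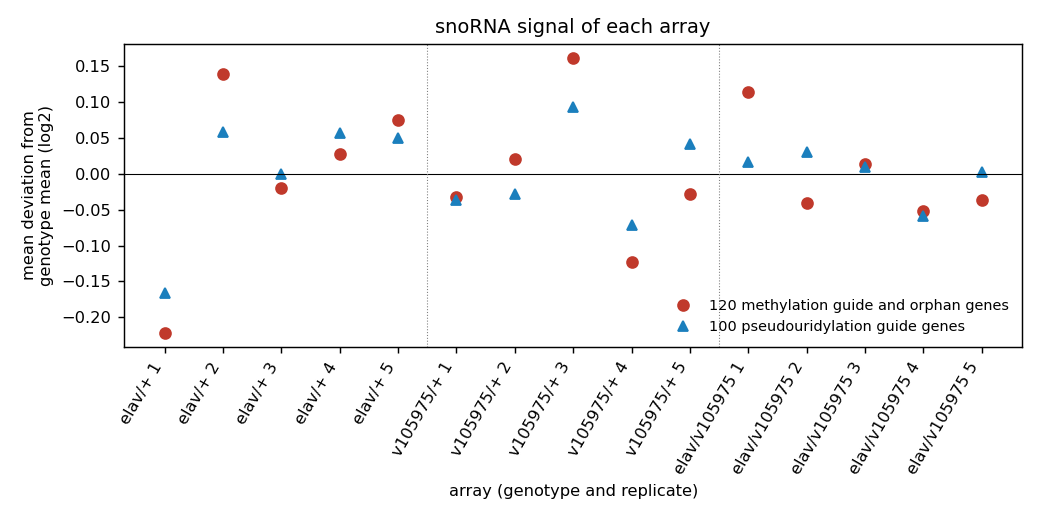
Mean deviation from the genotype mean (vertical axis, log2) of the 120 methylation guide and orphan genes (circles) and of the 100 pseudouridylation guide genes (triangles) on each of the 15 arrays (horizontal axis). The lowest circle is elav/+ replicate 1 at -0.22 and the highest is v105975/+ replicate 3 at 0.16.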

How the data were processed

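RNA of fly heads was measured on 15 arrays, 5 for each of 3 genotypes. The authors used robust multi-array average (RMA) in oligo 1.44.0 to correct the background, normalize by quantiles and summarize probes, and they deposited log2 intensities for each probeset. This normalization hides a change shared by most transcripts. All 16322 probesets were fitted as deposited, with genotype as the only term, using the default settings of lmFit, contrasts.fit and eBayes (limma 3.58.1, R 4.3.3), and Benjamini-Hochberg adjustment was made over all probesets at 0.05. Exact two-sided permutation tests used every division of 10 arrays into 5 and 5. Precision is limited by the 5 arrays per genotype. The fit was tested on simulated data.

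Symbols came from the platform annotation for 117 members and from a supplementary table for 3. Hosts are RefSeq genes whose span holds the snoRNA gene, regardless of strand, with the brightest probeset not identical to a snoRNA probeset. Named were the members called in any comparison, the 3 brightest and 3 dimmest, the smallest p of each class and of each host with at least 4 members, called genes of the lists on snoRNA particles, hosts and trimming, and Clic. Other members of a host or family were named after their values were seen, and so were Nopp140, Nop10, NHP2, Gar1 and the single marker genes. The members and lists were chosen with earlier results of these data known. A summed level is the log2 of the summed linear intensities of a list. The elav and w probesets are not described further. The values of 1 of the host genes are not reported here. Columns with the authors' own fold changes in the supplementary tables were not used.

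The alternatives were a fit of the 10 arrays compared, a replicate block, an intensity trend, a robust prior, array weights, no dimmest 25% of probesets, median centring, quantile normalization once more, other counts of members, an adjusted p of 0.01 and leaving out each array.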

Additional observations from a re-analysis of the deposited data

Results flagged for a closer look

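Among 93 groups of 5 arrays (31 named members in 3 genotypes), 10 held an array far from the other 4, and chance alone flags about 1 group in 20. In elav/+, Dek-a read 11.54 on replicate 2 (others up to 11.41), Me18S-A1576 read 5.12 on replicate 1 (others from 5.92) and Me28S-C3351 read 2.3 on replicate 3 (others from 2.54). In v105975/+, snoRNA:185 read 13.35 on replicate 3 (others up to 13.28), lola-d read 7.81 on the same array (others up to 7.39) and the U3 probeset read 13.2 on replicate 5 (others from 13.34). In elav/v105975, Me28S-A982b read 6.36 on replicate 5 (others from 6.78), Or-aca1 read 9.7 on that array (others up to 9.54), MeU6-C68 read 3.6 on replicate 1 (others from 4.12) and Or-aca5 read 12.88 on replicate 4 (others from 13.02).

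Some genes beside the members differed between the genotypes that carry the transgene. Clic was lower in elav/v105975 than in v105975/+ by -0.54, and CG10341 by -0.55 (limma adjusted p = 0.00294).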

How the results depend on the processing

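The calls of lola-d and Pi4KIIalpha-a (against elav/+ in both genotypes) and of Dek-a, Me28S-G3113b and U31:54Eb (in elav/v105975) held under every alternative that could test them. Me28S-G3113b is among the dimmest 25% of probesets and was not tested without these. No called difference changed sign. For elav/v105975 against elav/+, the count of 8 called members became 15 with an intensity trend and 5 at an adjusted p of 0.01, and it ranged from 5 (without elav/+ replicate 5 or elav/v105975 replicate 5) to 11 (without elav/+ replicate 1) when each array was left out. For v105975/+ against elav/+, the count of 5 became 3 in the fit of 10 arrays, 8 without the dimmest 25% of probesets and 2 at an adjusted p of 0.01, and ranged from 2 (without v105975/+ replicate 1 or 4) to 6 when each array was left out. For elav/v105975 against v105975/+, the count of 0 became 1 with an intensity trend and without the dimmest 25%, and ranged from 0 to 1 when each array was left out. The causes were not tested.

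The replicate numbers did not pair the arrays, since deviations of same-numbered arrays correlated between -0.076 and 0.176 (median 0.017 over 15 pairs). With the replicate number as a block the 3 counts were 7, 3 and 1. Under the block Or-CD8 (adjusted p = 0.0515) and the Me28S-C2645b and C2645c probeset (0.0509) lost their calls in elav/v105975, and Or-aca4 (0.0225) gained one. In v105975/+, U31:54Eb, the C2645b and C2645c probeset and Or-CD4 lost theirs (adjusted p of 0.0528 to 0.0658) and Me28S-A2634b (0.0289) gained one, as it did between elav/v105975 and v105975/+ (0.027).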
